A study of Homo sapiens with 35 samples.

Results

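PHOX2A, HAND1, HAND2, GATA2, GATA3, ISL1, TBX2 and TFAP2B are transcription factors of the core regulatory set that gives sympathetic neurons, and the neuroblastoma cells derived from that lineage, their noradrenergic identity. They were taken as the probe sets annotated to exactly 1 of these 8 symbols, which gave 15 of the 19415 probe sets with a single symbol and 8 of the 11940 genes measured. All 8 genes were found. PHOX2A, HAND1, HAND2 and ISL1 had 1 probe set each, TFAP2B had 2, and GATA2, GATA3 and TBX2 had 3 each.

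Every sample was the human neuroblastoma line BE(2)-C, a single established line with extra copies of MYCN, so the data describe 1 tumour's cells in culture. Cells received the vehicle DMSO, 5 uM ATRA (all-trans retinoic acid, which binds the retinoic acid receptors), 1 mM VPA (valproic acid, an inhibitor of histone deacetylases) or both agents, and were taken at 6 h, 24 h or 72 h. Expression was measured on 35 Affymetrix arrays in 12 groups of 3, except DMSO at 72 h with 2. The study sought a set of genes that could report differentiation in a screen.

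In the developing sympathetic chain these factors act together and keep one another active. PHOX2A is a paired-type homeodomain protein that activates the genes of noradrenaline synthesis, HAND1 and HAND2 are basic helix-loop-helix (bHLH) proteins, GATA2 and GATA3 are zinc finger proteins, ISL1 is a LIM homeodomain protein, TBX2 is a T-box protein known mostly as a repressor, and TFAP2B is an AP-2 protein. In noradrenergic neuroblastoma their genes carry large enhancers to which the factors themselves bind, which is why the set is called a core regulatory circuit.

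The stretch of 250 bases before the annotated start is shown for the 5 members with a single start in the RefSeq promoter table (build GRCh38.p14), so that members called against DMSO in different directions and HAND2, with no such call, can be set side by side. Capitals mark CANNTG, the E-box bound by bHLH proteins, and GATAA, the core of the GATA motif, each searched on both strands (GATAA on the opposite strand reads TTATC). The windows were chr11:72244177-72244426 on the minus strand for PHOX2A, chr5:154478228-154478477 on the minus strand for HAND1, chr4:173530230-173530479 on the minus strand for HAND2, chr5:51383198-51383447 on the plus strand for ISL1 and chr6:50818621-50818870 on the plus strand for TFAP2B.
PHOX2A: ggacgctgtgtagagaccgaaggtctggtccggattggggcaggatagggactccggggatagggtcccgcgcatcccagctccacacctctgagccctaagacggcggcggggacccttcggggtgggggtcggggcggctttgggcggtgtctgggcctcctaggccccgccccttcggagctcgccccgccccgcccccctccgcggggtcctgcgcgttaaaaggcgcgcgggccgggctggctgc
HAND1: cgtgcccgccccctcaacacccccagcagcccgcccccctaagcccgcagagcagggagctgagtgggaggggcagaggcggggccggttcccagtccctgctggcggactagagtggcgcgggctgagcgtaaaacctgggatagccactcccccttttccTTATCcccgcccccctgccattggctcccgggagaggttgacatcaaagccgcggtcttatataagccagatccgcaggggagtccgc
HAND2: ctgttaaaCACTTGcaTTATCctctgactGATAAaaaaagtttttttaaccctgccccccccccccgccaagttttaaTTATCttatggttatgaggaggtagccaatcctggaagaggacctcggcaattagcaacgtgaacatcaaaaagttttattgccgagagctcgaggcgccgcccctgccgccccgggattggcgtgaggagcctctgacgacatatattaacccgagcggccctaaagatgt
ISL1: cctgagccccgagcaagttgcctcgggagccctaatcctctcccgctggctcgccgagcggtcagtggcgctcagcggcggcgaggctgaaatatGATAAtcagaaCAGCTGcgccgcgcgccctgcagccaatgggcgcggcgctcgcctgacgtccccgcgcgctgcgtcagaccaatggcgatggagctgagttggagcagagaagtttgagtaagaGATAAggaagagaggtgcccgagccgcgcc
TFAP2B: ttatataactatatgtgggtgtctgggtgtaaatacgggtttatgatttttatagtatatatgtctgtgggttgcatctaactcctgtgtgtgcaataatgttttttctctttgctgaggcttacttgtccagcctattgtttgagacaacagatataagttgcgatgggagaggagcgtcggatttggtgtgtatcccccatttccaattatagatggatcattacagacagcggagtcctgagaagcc

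The HAND2 window held 1 CANNTG and 3 GATAA, the ISL1 window held 1 CANNTG and 2 GATAA, and the HAND1 window held 1 GATAA. The PHOX2A and TFAP2B windows held neither in this stretch. Of 35116 windows of the same length in the table, 61.8% held CANNTG and 20.4% held GATAA, so a CANNTG match is common. The base composition ran from 40.8% G and C for TFAP2B and 49.6% for HAND2 to 65.2% for ISL1, 67.2% for HAND1 and 73.2% for PHOX2A, against a median of 58% over all windows. In total 7 of the 8 members matched the table, with 2 windows for GATA2 and 6 for GATA3, which are not shown.

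The values are RMA intensities, summarised per probe set on a linear scale, and changes are differences of log2(intensity + 1) with their standard error (SE). Each gene was read from its brightest probe set, and a change counts as called where limma's adjusted p (Benjamini-Hochberg over 11940 genes) was under 0.05. On 7 members the brightest probe set lay above the median of its own array in 35 of 35 arrays. HAND2 lay below it in 35 of 35 arrays, at 22.7 to 43.6, though above the lower quartile of its array in all 35. The 10 noradrenergic neuroblastoma markers all had mean values above the highest array median of 58.9, with group sums from 33577 to 38504. Markers of Schwann and glial cells (5 of 5), endothelium (6 of 6) and blood cells (6 of 6) were all below that level, as were 5 of 6 epithelial markers (group sums from 178 to 592) and 5 of 10 fibroblast and mesenchymal markers (group sums from 5360 with ATRA at 72 h to 8865 with both agents at 72 h). In bulk RNA, fewer cells that express a gene and less RNA of it per cell cannot be told apart.

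The median of an array was 43.6 in DMSO 24 h replicate 1 and 53.1 to 58.9 on every other array. The same array had a residual SD of 0.234, beside 0.0827 to 0.171 on the other arrays. The log2 3'/5' ratio of the control transcripts, a sign of RNA and labelling quality, had group means from 0.20 to 0.44 at 6 h, from 0.89 to 1.60 at 24 h and from 1.06 to 1.82 at 72 h, where DMSO was at 1.06, ATRA at 1.82, VPA at 1.09 and both agents at 1.36. With this ratio entered as a covariate, all 10 member calls with ATRA and all 15 with both agents against DMSO stayed called. The call of PHOX2A with VPA at 24 h and most calls between times with DMSO were lost. Beside the group means, the covariate draws only on differences of the ratio within groups. That fit therefore cannot tell a treatment effect from a quality difference between groups.

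**Figure D1:**
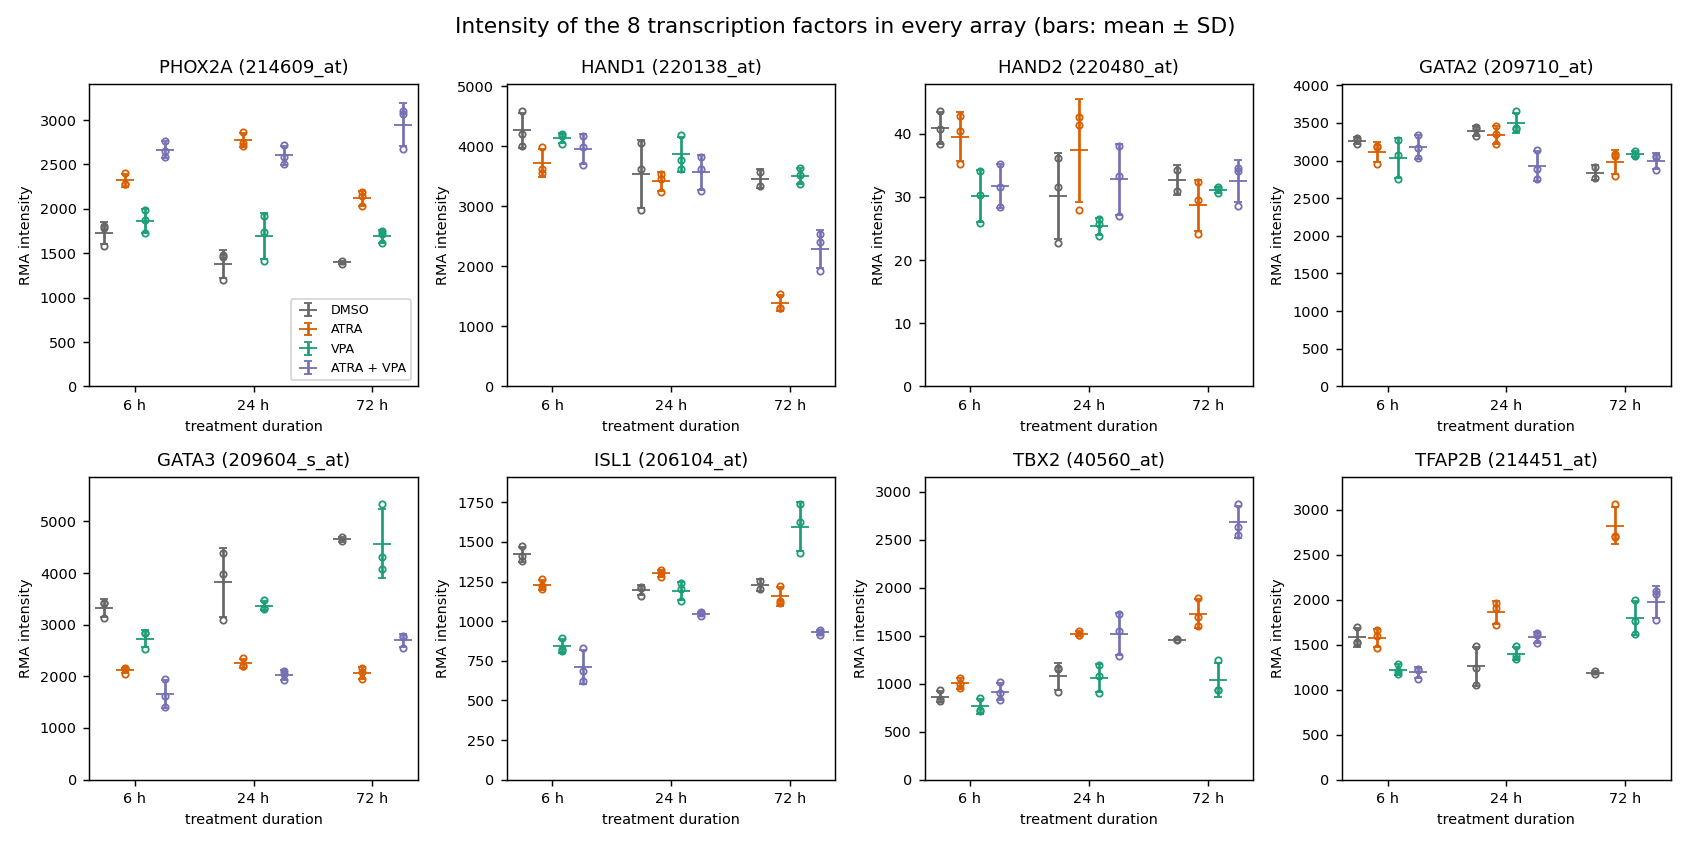
RMA intensity (linear axis from 0) of each of the 8 transcription factors in every array, by treatment duration and treatment, with open points for single arrays and bars for the mean ± SD of 3 arrays (2 for DMSO at 72 h). GATA3 sat at 1409 to 2787 in every array with ATRA and at 2532 or more in every array without it, HAND1 fell to 1301 to 1542 with ATRA at 72 h, and TBX2 reached 2545 to 2868 with both agents at 72 h.

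ATRA raised PHOX2A and lowered GATA3 at all 3 times, and by 72 h it had lowered HAND1 and raised TFAP2B, each by more than 2-fold. VPA lowered ISL1 and TFAP2B at 6 h, raised PHOX2A at 24 h, and at 72 h raised ISL1 and TFAP2B and lowered TBX2. In the 9 comparisons with DMSO, GATA2 was called in 1 and HAND2 in none. Of the 8 members, 1 rose and 1 fell with ATRA at 6 h, where 1.03% of all genes were called higher and 0.586% lower. At 24 h 3 rose and 1 fell (12.5% and 6.03% of all genes), and at 72 h 2 rose and 2 fell (10.7% and 20.2%). With VPA, 0 members rose and 2 fell at 6 h (6.46% and 4.7% of all genes), 1 rose and 0 fell at 24 h (9.66% and 2.49%), and 2 rose and 1 fell at 72 h (4.51% and 2.15%). With both agents, 1 rose and 3 fell at 6 h (6.73% and 4.87% of all genes), 3 rose and 2 fell at 24 h (13.5% and 7.79%), and 3 rose and 3 fell at 72 h (14.9% and 16.6%). The members had no common direction: the median log2 change against DMSO at 72 h was -0.01 with ATRA, 0.07 with VPA and 0.03 with both, beside 0.0015, -0.02 and -0.01 over all genes.

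**Figure D2:**
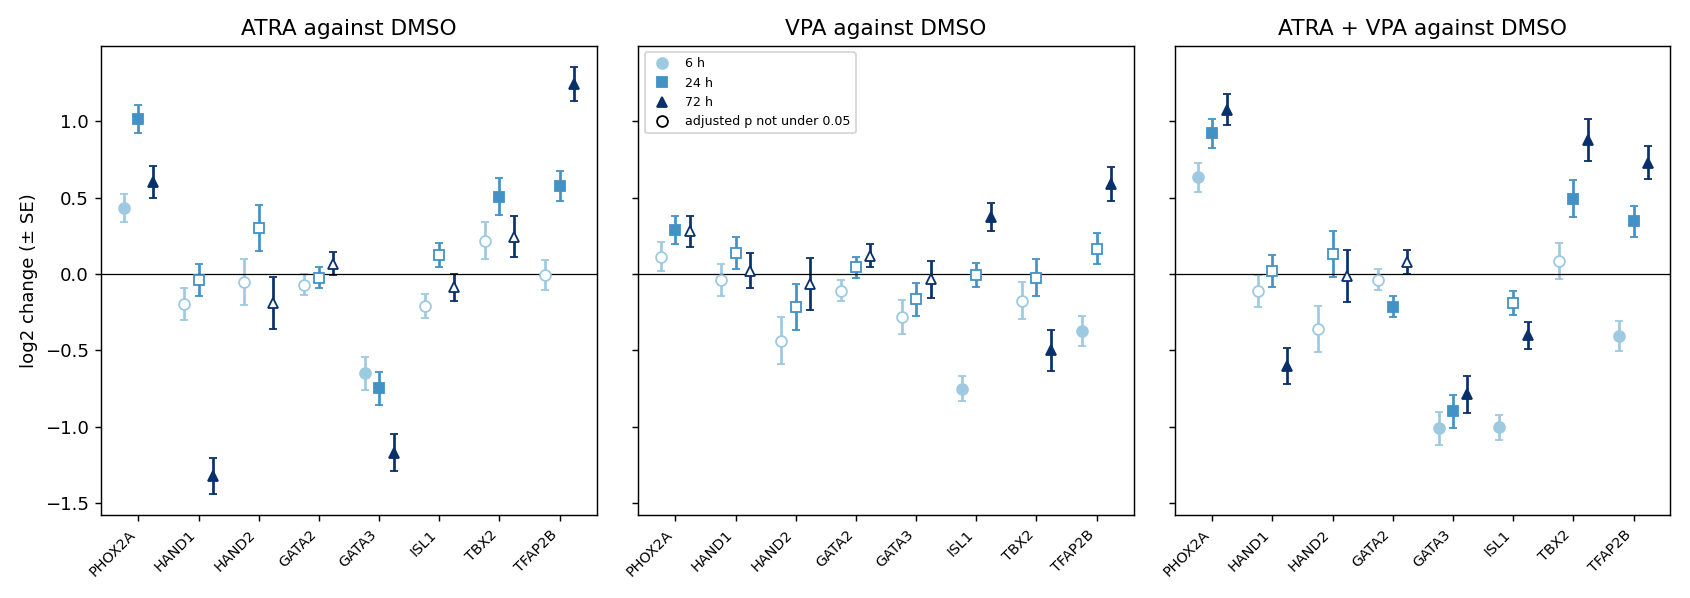
Log2 change of each member against DMSO of the same time (vertical axis, ± SE) with ATRA, VPA and both agents, at 6 h (circles), 24 h (squares) and 72 h (triangles). Filled symbols have an adjusted p under 0.05; PHOX2A lies above 0 and GATA3 below 0 at every time with ATRA and with both agents.

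PHOX2A, the activator of noradrenaline synthesis genes, was higher in every array with ATRA than in any DMSO array of the same time. At 6 h the arrays read 1581, 1782 and 1808 (DMSO), 2406, 2278 and 2281 (ATRA), 1727, 1877 and 1991 (VPA) and 2768, 2647 and 2588 (both agents). At 24 h the arrays read 1198, 1484 and 1460 (DMSO), 2865, 2712 and 2747 (ATRA), 1739, 1922 and 1410 (VPA) and 2501, 2586 and 2720 (both agents). At 72 h the arrays read 1381 and 1410 (DMSO), 2185, 2026 and 2139 (ATRA), 1612, 1751 and 1715 (VPA) and 2676, 3073 and 3100 (both agents). The arrays with ATRA, alone or with VPA, did not overlap with DMSO at any time, whereas VPA and DMSO overlapped at 6 h and 24 h.

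The rise of PHOX2A with ATRA was 0.43 ± 0.09 on the log2 scale at 6 h (adjusted p = 0.0087), 1.01 ± 0.09 at 24 h (adjusted p = 1.3e-09) and 0.60 ± 0.10 at 72 h (adjusted p = 4.3e-05). The 6 h call was lost without DMSO 6 h replicate 1 (0.37, adjusted p = 0.092) or ATRA 6 h replicate 1 (0.41, adjusted p = 0.056). With both agents the rise was 0.63 ± 0.09 at 6 h, 0.92 ± 0.09 at 24 h and 1.08 ± 0.10 at 72 h (adjusted p = 1.5e-09), and these calls stood in every fit tried. The combination stood 0.48 ± 0.09 above ATRA alone at 72 h (adjusted p = 0.00042), while at 24 h no difference from ATRA was called. VPA alone gave a called rise at 24 h only (0.29 ± 0.09, adjusted p = 0.040), lost without DMSO 24 h replicate 1 (0.19, adjusted p = 0.23), VPA 24 h replicate 1 (0.26, adjusted p = 0.13) or VPA 24 h replicate 2 (0.19, adjusted p = 0.28). At 72 h the change with VPA was of similar size (0.28) but not called, although its arrays did not overlap with DMSO.

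HAND1, the bHLH partner of the set that is well known from heart and placenta, was lowered by ATRA late. At 72 h the arrays read 3345 and 3570 (DMSO), 1313, 1301 and 1542 (ATRA), 3641, 3515 and 3365 (VPA) and 1927, 2541 and 2400 (both agents). The ATRA arrays lay below all others, the arrays with both agents lay between, and VPA overlapped with DMSO. At 6 h and 24 h all 24 arrays lay between 2941 and 4585, and none of the 6 comparisons with DMSO at these times was called by limma (0 at an unadjusted p under 0.05).

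The fall of HAND1 with ATRA at 72 h was -1.32 ± 0.12, or 2.50-fold (adjusted p = 4.0e-10), and with both agents -0.60 ± 0.12, or 1.52-fold (adjusted p = 0.00012). The combination thus stood 0.72 ± 0.10 above ATRA alone (adjusted p = 8.1e-06) and 0.62 lower than VPA alone (log2 change -0.62 ± 0.10, adjusted p = 2.4e-05). The effect of ATRA at 72 h differed from that at 6 h by -1.12 ± 0.16 (adjusted p = 5.1e-06) and from that at 24 h by -1.28 ± 0.16 (adjusted p = 3.6e-06).

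HAND2, the bHLH factor required for noradrenergic differentiation of sympathetic neurons, was read by a dim probe set. Its arrays read 43.6, 38.4 and 40.7 with DMSO at 6 h, 30.3, 25.9 and 34.1 with VPA, and 28.3, 35.2 and 31.5 with both. At 24 h they read 22.7, 36.1 and 31.6 with DMSO, 42.7, 27.9 and 41.4 with ATRA, and 25.7, 23.8 and 26.4 with VPA. The 6 h arrays with VPA did not overlap with those of DMSO, but no comparison with DMSO was called at any time (0 of 9 by limma), and only VPA and both agents at 6 h had an unadjusted p under 0.05 (log2 changes -0.44 and -0.36, adjusted p = 0.062 and 0.14). Without VPA 6 h replicate 3 the VPA value was -0.53 with an adjusted p of 0.047, and without ATRA 24 h replicate 2 the ATRA value at 24 h moved from 0.30 to 0.49 (adjusted p = 0.024). At 24 h ATRA stood 0.52 ± 0.15 above VPA (adjusted p = 0.011), no longer called without ATRA 24 h replicate 1 (0.41, adjusted p = 0.083) or replicate 3 (0.43, adjusted p = 0.072) and with the 3'/5' covariate (0.22, adjusted p = 0.35).

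HAND2-AS1, an antisense RNA gene whose annotated span overlaps that of HAND2, was taken up after its values were seen. Its intensity at 6 h was 1318 ± 129 (DMSO), 1349 ± 21.1 (ATRA), 873 ± 106 (VPA) and 769 ± 104 (both agents; SD, n = 3). It fell with VPA (-0.60 ± 0.14, adjusted p = 0.0030 by limma) and with both agents (-0.78 ± 0.14, adjusted p = 0.00014) at 6 h, and at 24 h and 72 h its group means lay between 1064 and 1729 with no call against DMSO.

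GATA3, the zinc finger factor needed for survival of sympathetic neurons and for their noradrenaline enzymes, fell at every time with ATRA and with both agents. At 6 h the arrays read 3429, 3411 and 3123 (DMSO), 2051, 2152 and 2137 (ATRA), 2834, 2832 and 2532 (VPA) and 1946, 1627 and 1409 (both agents). At 24 h the arrays read 3086, 3987 and 4394 (DMSO), 2197, 2202 and 2350 (ATRA), 3470, 3330 and 3299 (VPA) and 2046, 2111 and 1920 (both agents). At 72 h the arrays read 4615 and 4688 (DMSO), 1946, 2084 and 2171 (ATRA), 4301, 4071 and 5329 (VPA) and 2546, 2787 and 2758 (both agents). No array with ATRA overlapped with DMSO of its time.

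The change of GATA3 with ATRA was -0.65 ± 0.11 at 6 h (adjusted p = 0.00040), -0.75 ± 0.11 at 24 h (adjusted p = 5.8e-06) and -1.17 ± 0.12 at 72 h (adjusted p = 1.1e-08). With both agents it was -1.01 ± 0.11, -0.90 ± 0.11 and -0.79 ± 0.12 at these times (adjusted p = 1.1e-07, 2.3e-07 and 5.8e-06). All 6 calls stood in every fit tried, and all 3 GATA3 probe sets gave a called fall in each of the 6 comparisons, at 72 h with ATRA by -1.27, -0.96 and -1.17. VPA alone gave no call on the brightest probe set (-0.28 ± 0.11 at 6 h, adjusted p = 0.10), although the other probe sets were called lower at 6 h (-0.41 and -0.38). At 72 h the brightest probe set stood 0.38 ± 0.11 higher with both agents than with ATRA (adjusted p = 0.011), no longer called without ATRA 72 h replicate 1 (0.34, adjusted p = 0.056), and the other probe sets gave -0.003 and 0.02 with no call.

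GATA2, the other GATA factor of the set, was the steadiest member when each was read from its brightest probe set. Its range over the 12 group means was then 0.30 on the log2 scale. Its 35 arrays lay between 2753 and 3655, and all 11 neighbouring pairs in the order of group means overlapped. The sole call against DMSO was with both agents at 24 h, where the arrays read 3136, 2887 and 2753 against 3420, 3440 and 3322 (-0.22 ± 0.07, adjusted p = 0.023). That call was lost without DMSO 24 h replicate 1 (-0.21, adjusted p = 0.057) or replicate 2 (-0.21, adjusted p = 0.062), without both-agent 24 h replicate 2 (-0.21, adjusted p = 0.069) or replicate 3 (-0.17, adjusted p = 0.12), and as the mean of all 3 probe sets (-0.15, adjusted p = 0.15). A second GATA2 probe set, also above the array median in 35 of 35 arrays, varied more, with group means from 961 to 1337. With VPA it read 1013 against 1337 with DMSO at 6 h, and 1275 against 1009 at 24 h. With both agents at 24 h it read 961 ± 153, against 1009 ± 168 with DMSO (SD). The third probe set was dim (mean 23.3).

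ISL1, the LIM homeodomain factor that acts in sympathetic and sensory neurons, was the member on which VPA had its largest early effect. At 6 h the arrays read 1474, 1410 and 1381 (DMSO), 1205, 1219 and 1264 (ATRA), 826, 815 and 893 (VPA) and 830, 685 and 622 (both agents). At 24 h the single agents lay near DMSO, at 1126 to 1320 against 1157 to 1216, and both agents lay lower at 1030 to 1059. By 72 h the arrays read 1203 and 1253 (DMSO), 1128, 1116 and 1223 (ATRA), 1623, 1428 and 1737 (VPA) and 943, 912 and 930 (both agents). VPA arrays were thus the lowest of the single agents at 6 h and the highest of all at 72 h, while arrays with both agents were below DMSO at each time.

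The change of ISL1 with VPA was -0.75 ± 0.08 at 6 h (adjusted p = 1.3e-07) and 0.37 ± 0.09 at 72 h (adjusted p = 0.0077), and the effects at these times differed by 1.12 ± 0.12 (adjusted p = 4.4e-07). The 72 h rise was lost without DMSO 72 h replicate 1 (0.34, adjusted p = 0.13) or replicate 2 (0.40, adjusted p = 0.058) or without VPA 72 h replicate 3 (0.31, adjusted p = 0.054), whereas the 6 h fall stood in every fit. With both agents ISL1 fell by 1.01 ± 0.08 at 6 h (adjusted p = 5.0e-10) and by 0.40 ± 0.09 at 72 h (adjusted p = 0.00069). At 24 h its change with both agents, -0.19 ± 0.08, was not called against DMSO (adjusted p = 0.092) but was called against ATRA (-0.32 ± 0.08, adjusted p = 0.0097).

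TBX2, the T-box repressor, rose most with the combination. At 6 h its arrays read 836, 933 and 822 with DMSO and lay between 716 and 1059 in the treated groups, with no call. At 24 h the arrays read 914, 1153 and 1167 (DMSO), 1553, 1505 and 1510 (ATRA), 1192, 1078 and 907 (VPA) and 1726, 1546 and 1286 (both agents). By 72 h the arrays read 1453 and 1465 (DMSO), 1601, 1692 and 1897 (ATRA), 937, 939 and 1244 (VPA) and 2545, 2633 and 2868 (both agents). The 4 treatments did not overlap at 72 h: VPA was lowest, then DMSO, ATRA and both agents.

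TBX2 rose with ATRA at 24 h by 0.51 ± 0.12 (adjusted p = 0.0028), and with both agents by 0.49 ± 0.12 at 24 h (adjusted p = 0.0031) and 0.88 ± 0.14 at 72 h (adjusted p = 5.4e-06). At 72 h ATRA alone gave 0.24 ± 0.14 with no call (adjusted p = 0.18). VPA alone lowered it at 72 h (-0.50 ± 0.14, adjusted p = 0.019), no longer called without DMSO 72 h replicate 1 (-0.51, adjusted p = 0.13) or replicate 2 (-0.49, adjusted p = 0.16) and without VPA 72 h replicate 1 (-0.43, adjusted p = 0.099) or replicate 2 (-0.43, adjusted p = 0.097). The combination stood 0.63 ± 0.12 above ATRA alone at 72 h (adjusted p = 0.00031) and 1.38 ± 0.12 above VPA alone (adjusted p = 2.9e-10). All 3 TBX2 probe sets rose with both agents at 72 h, by 0.57, 0.97 and 0.88. With VPA at 72 h the other TBX2 probe sets gave -0.37 (adjusted p = 0.21) and -0.49 (adjusted p = 0.12), with no call.

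TFAP2B, the AP-2 factor with a role in noradrenergic development, was lowered by VPA at 6 h and raised by ATRA later. At 6 h the arrays read 1701, 1526 and 1514 (DMSO), 1468, 1658 and 1599 (ATRA), 1287, 1170 and 1203 (VPA) and 1235, 1223 and 1117 (both agents). At 24 h the arrays read 1482, 1239 and 1057 (DMSO), 1963, 1715 and 1903 (ATRA), 1480, 1343 and 1379 (VPA) and 1631, 1603 and 1514 (both agents). At 72 h the arrays read 1175 and 1204 (DMSO), 3058, 2712 and 2695 (ATRA), 1767, 1621 and 1994 (VPA) and 1774, 2098 and 2059 (both agents). On this brightest probe set every treated array at 72 h lay above DMSO, and the ATRA arrays lay above all the others.

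TFAP2B changed with VPA by -0.37 ± 0.10 at 6 h (adjusted p = 0.011), no longer called without DMSO 6 h replicate 1 (-0.32, adjusted p = 0.075) or VPA 6 h replicate 2 (-0.34, adjusted p = 0.056), and by 0.59 ± 0.11 at 72 h (adjusted p = 0.00060). With ATRA it rose by 0.57 ± 0.10 at 24 h (adjusted p = 6.5e-05) and 1.24 ± 0.11 at 72 h (2.37-fold, adjusted p = 4.7e-10). With both agents it changed by -0.41 ± 0.10 at 6 h (adjusted p = 0.0050), 0.34 ± 0.10 at 24 h (adjusted p = 0.012) and 0.73 ± 0.11 at 72 h (adjusted p = 4.3e-06). The 24 h rise with both agents was lost without DMSO 24 h replicate 3 (0.22, adjusted p = 0.11). The second, dimmer TFAP2B probe set did not show the late rise with ATRA (0.22 ± 0.25 at 72 h, adjusted p = 0.59), and the mean of both probe sets gave 0.73 there, still called. At 72 h this second probe set read 78.2 ± 21.0 with DMSO, 92.3 ± 9.8 with both agents and 108 ± 11.2 with VPA (SD). Its arrays with both agents overlapped with DMSO. At 6 h the second probe set fell more, by 0.94 ± 0.23 with VPA and by 1.02 ± 0.23 with both agents.

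The 24 h calls against DMSO rest in part on the spread pooled over all 12 groups. With only the arrays compared in the model, the same 24 h changes gave an adjusted p of 0.052 for TBX2 and 0.057 for TFAP2B with ATRA, and of 0.11, 0.21 and 0.28 for TBX2, TFAP2B and GATA2 with both agents. At 72 h this ended the VPA calls of ISL1 (adjusted p = 0.069) and TBX2 (adjusted p = 0.063), while the ATRA and both-agent calls against DMSO at 72 h stood. PHOX2A with VPA at 24 h reached an adjusted p of 0.43 in that fit, and 0.14 with the 3'/5' covariate, where its change was 0.25. The mean of the probe sets gave 0.24 for TFAP2B with both agents at 24 h (adjusted p = 0.20). HAND2 instead gained calls in the fit of only the arrays compared: its values at 6 h, -0.44 with VPA and -0.36 with both agents, then had adjusted p-values of 0.020 and 0.046.

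Between treatments, the fit of only the arrays compared ended 4 calls of the combination. These were GATA3 against ATRA at 6 h (adjusted p = 0.076), ISL1 against ATRA at 72 h (adjusted p = 0.051), and GATA2 and TBX2 against VPA at 24 h (adjusted p = 0.15 and 0.060). With the 3'/5' covariate GATA2 against VPA at 24 h was -0.23 (adjusted p = 0.071). The HAND1 interaction at 72 h had an adjusted p of 0.057. Across the DMSO arrays the 24 h against 6 h calls of PHOX2A, HAND2, ISL1 and TFAP2B ended as well, with adjusted p-values of 0.20, 0.20, 0.18 and 0.24.

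**Figure D3:**
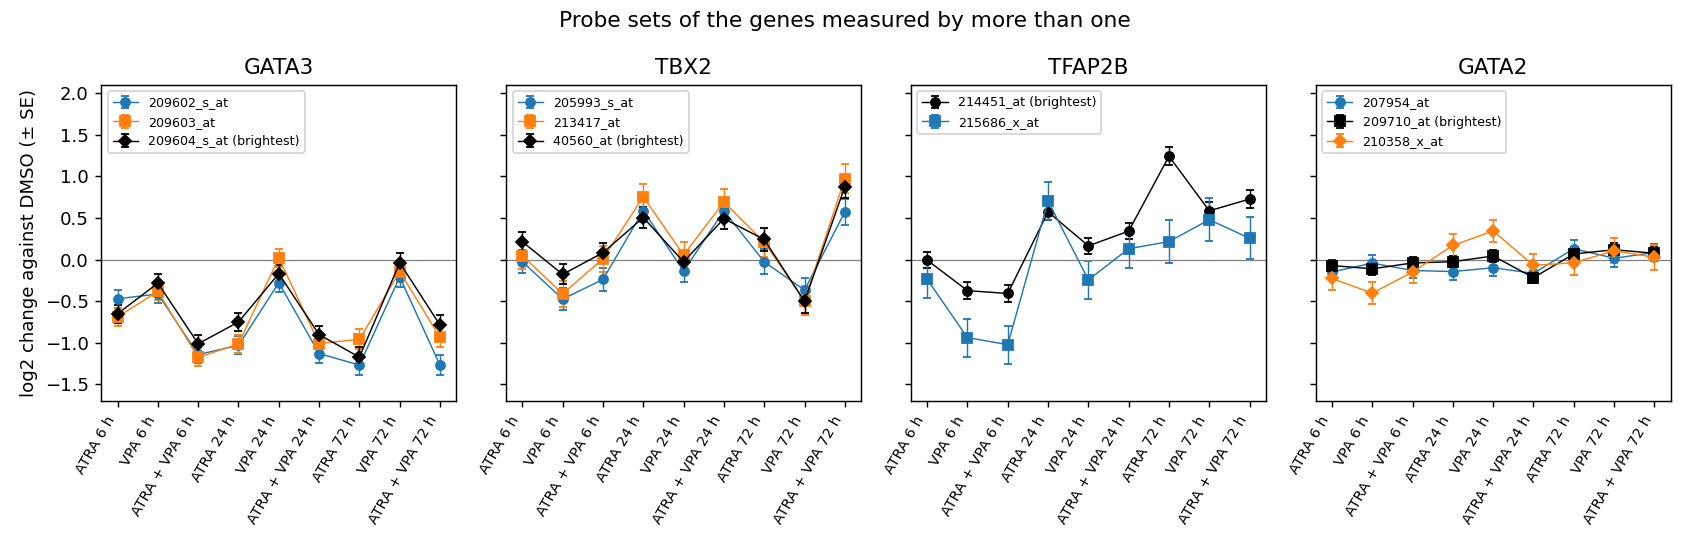
Log2 change against DMSO (± SE) of every probe set of GATA3, TBX2, TFAP2B and GATA2 over the 9 treatment and time combinations on the horizontal axis, with the brightest probe set in black and lines joining the points of a probe set for the eye. With both agents at 72 h the GATA3 probe sets lay at -1.27, -0.93 and -0.79 and those of TBX2 at 0.57, 0.97 and 0.88, and with ATRA at 72 h the TFAP2B probe sets lay at 1.24 and 0.22.

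The 2 single agents were also compared with each other. ATRA stood above VPA for PHOX2A, TBX2 and TFAP2B and below it for GATA3 at each of the 3 times. At 6 h 4 members were called higher and 1 lower with ATRA (6.73% and 8.9% of all genes), at 24 h 4 higher and 1 lower (13% and 13.3%), and at 72 h 3 higher and 3 lower (11.8% and 20%). Differences of ATRA from VPA at 72 h were -1.34 ± 0.10 for HAND1, -1.13 ± 0.11 for GATA3, -0.46 ± 0.08 for ISL1, 0.74 ± 0.12 for TBX2, 0.66 ± 0.10 for TFAP2B and 0.32 ± 0.09 for PHOX2A. ISL1 was higher with ATRA than with VPA at 6 h (0.54 ± 0.08, adjusted p = 1.1e-05) and lower at 72 h (adjusted p = 4.4e-05). Leaving out single arrays ended the 6 h calls of 4 members. PHOX2A was lost without VPA 6 h replicate 1 (0.26) or ATRA 6 h replicate 1 (0.29). GATA3 was lost without VPA 6 h replicate 1 or 2 (-0.34 each) or ATRA 6 h replicate 1 (-0.35). TBX2 was lost without VPA 6 h replicate 1 (0.35) or 2 (0.36), and without ATRA 6 h replicate 1 (0.40) or 3 (0.35). TFAP2B was lost without ATRA 6 h replicate 2 (0.33). The mean of the probe sets gave -0.24 for GATA3 at 6 h (adjusted p = 0.051) and 0.20 for TFAP2B at 72 h (adjusted p = 0.25). With the 3'/5' covariate PHOX2A at 72 h was at 0.27 (adjusted p = 0.074).

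Adding VPA to ATRA raised 0 members and lowered 3 at 6 h (7.13% and 4.84% of all genes), raised 0 and lowered 1 at 24 h (4.86% and 4.63%), and raised 4 and lowered 2 at 72 h (14.6% and 6.2%). The members lowered at 6 h were ISL1 (-0.80 ± 0.08, adjusted p = 3.3e-08), TFAP2B (-0.40 ± 0.10, adjusted p = 0.0056) and GATA3 (-0.36 ± 0.11, adjusted p = 0.026). The GATA3 call at 6 h was lost without ATRA 6 h replicate 2 or 3 (-0.35 each) or both-agent 6 h replicate 2 (-0.35) or 3 (-0.25). At 72 h, TFAP2B was lower with both agents than with ATRA by -0.51 ± 0.10 (adjusted p = 0.00034), and the mean of its probe sets gave -0.24 with no call (adjusted p = 0.19). ISL1 was lower than with ATRA by -0.31 ± 0.08 at that time (adjusted p = 0.0053).

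Adding ATRA to VPA raised 1 member and lowered 1 at 6 h, where 0.452% of all genes were called higher and 0.117% lower. These were PHOX2A (0.52 ± 0.09, adjusted p = 0.0016) and GATA3 (-0.73 ± 0.11, adjusted p = 0.00011). At 24 h 2 rose and 2 fell (5.13% and 6.74% of all genes): PHOX2A by 0.63, TBX2 by 0.52, GATA3 by -0.73 and GATA2 by -0.26. The GATA2 call was lost without VPA 24 h replicate 1 (-0.23) or both-agent 24 h replicate 3 (-0.22). At 72 h 2 rose and 3 fell (12.3% and 13.4% of all genes), with PHOX2A at 0.80, TBX2 at 1.38, HAND1 at -0.62, GATA3 at -0.75 and ISL1 at -0.78.

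The ATRA by VPA interaction asks whether the change with both agents differs from the sum of the single-agent changes. By limma, 0 of 8 members were called at 6 h (0% of all genes in either direction, 0 members at an unadjusted p under 0.05) and 0 of 8 at 24 h (0.0754% of all genes higher and 0.662% lower, 4 members at an unadjusted p under 0.05). At 72 h 2 of 8 members were called higher and 2 lower, where 1.31% and 0.611% of all genes were. For TBX2 the single-agent changes summed to -0.26 and the combination gave 0.88, an interaction of 1.13 ± 0.18 (adjusted p = 0.00033). For HAND1 the sum was -1.30 and the combination -0.60, an interaction of 0.70 ± 0.16 (adjusted p = 0.013), lost without DMSO 72 h replicate 2 (0.65, adjusted p = 0.10) and after a second quantile normalization (0.52, adjusted p = 0.053).

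For TFAP2B the single-agent changes summed to 1.83 and the combination gave 0.73, an interaction of -1.10 ± 0.15 (adjusted p = 2.5e-05). For ISL1 the sum was 0.29 and the combination -0.40, an interaction of -0.69 ± 0.12 (adjusted p = 0.0011). PHOX2A (0.20 ± 0.14, adjusted p = 0.48) and GATA3 (0.42 ± 0.16, adjusted p = 0.17) were not called. All 3 TBX2 probe sets gave a called interaction at 72 h (0.97, 1.26 and 1.13), while the second TFAP2B probe set gave -0.44 ± 0.34 with no call (adjusted p = 0.56). All of these comparisons share the same 2 DMSO arrays at 72 h.

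**Figure D4:**
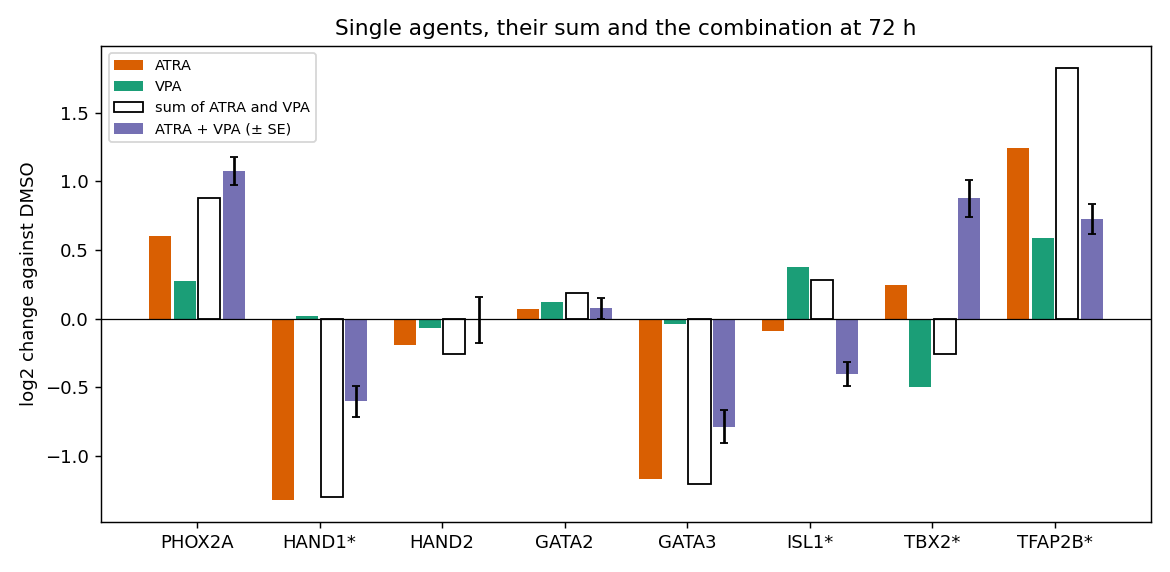
Log2 change against DMSO at 72 h (vertical axis) of each member with ATRA, with VPA, as the sum of these (open bars) and with both agents (± SE). Asterisks mark members whose interaction had an adjusted p under 0.05; TBX2 and ISL1 had a sum and a combination on opposite sides of 0, and HAND1 and TFAP2B had a combination nearer to 0 than the sum.

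Members also differed between times in cells that received DMSO alone. Of 8 members, 0 were higher and 4 lower at 24 h than at 6 h (5.19% and 10% of all genes): HAND2 (-0.45 ± 0.15), TFAP2B (-0.34 ± 0.10), PHOX2A (-0.32 ± 0.09) and ISL1 (-0.25 ± 0.08). All 4 were lost without at least 2 of the 6 arrays: without DMSO 24 h replicate 1 the values were -0.27 for HAND2, -0.22 for PHOX2A and -0.26 for ISL1, and without DMSO 24 h replicate 3 that of TFAP2B was -0.22. Leaving out DMSO 6 h replicate 1 ended the calls of HAND2 (-0.41), ISL1 (-0.22) and TFAP2B (-0.29), leaving out replicate 2 or 3 of that group those of PHOX2A (-0.30 and -0.29), HAND2 (-0.49 and -0.45) and ISL1 (-0.26 and -0.27), and leaving out DMSO 24 h replicate 2 that of ISL1 (-0.23). The second, dimmer TFAP2B probe set fell by a larger factor with DMSO. It read 187.9 ± 24.4 at 6 h, 79.3 ± 26.1 at 24 h and 78.2 ± 21.0 at 72 h (SD).

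Between 6 h and 72 h TBX2 (0.76 ± 0.14, adjusted p = 0.00033) and GATA3 (0.49 ± 0.12, adjusted p = 0.0083) rose with DMSO and TFAP2B fell (-0.41 ± 0.11, adjusted p = 0.015), where 5.08% of all genes were called higher and 5.5% lower. The TBX2 call stood in every fit tried, although 1 of its 3 probe sets gave -0.07 with no call and the mean of the 3 gave 0.48. That of GATA3 was lost without either DMSO 72 h array (0.50 and 0.48), although all 3 of its probe sets were called (0.82, 1.05 and 0.49), and that of TFAP2B ended without DMSO 6 h replicate 1 (-0.35) and without each DMSO 72 h array (-0.39 and -0.43). Between 24 h and 72 h no member was called (0 of 8 by limma, 3 at an unadjusted p under 0.05, 1.16% of all genes higher and 0.469% lower). When the 3'/5' ratio entered as a covariate, 2 calls were left of the 7 between times with DMSO. The ratio itself moved from 0.27 at 6 h to 1.05 and 1.06 at the later times.

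The effect of a treatment against DMSO was also compared between times. From 6 h to 72 h the effect of ATRA moved upward for 1 member and downward for 2 (5.57% and 11.8% of all genes), that of VPA upward for 2 and downward for 0 (1.24% and 0.762%), and that of both agents upward for 4 and downward for 1 (7.9% and 9.12%). From 24 h to 72 h these counts were 1 and 2 for ATRA (3.87% and 15.1%), 0 and 0 for VPA (0.268% and 0.276%, with 3 members at an unadjusted p under 0.05 by limma) and 0 and 1 for both agents (3% and 4.36%). From 6 h to 72 h the effect moved upward for TFAP2B under all 3 treatments, and downward for HAND1 and GATA3 with ATRA. The effect on ISL1 moved upward with VPA and with both agents. With both agents the effect moved upward for PHOX2A and TBX2 and downward for HAND1. Such a difference takes in the change of DMSO between the times. GATA3 means were 2114 and 2067 with ATRA at 6 h and 72 h, while DMSO went from 3321 to 4652. PHOX2A means were 2668 and 2950 with both agents, while DMSO went from 1724 to 1396. From 24 h to 72 h the ATRA effect moved upward for TFAP2B and downward for HAND1 and PHOX2A, and that of both agents downward for HAND1.

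Over the 12 group means, TBX2 had the widest range of the members at 1.81 on the log2 scale, followed by HAND1 at 1.62, GATA3 at 1.50, TFAP2B at 1.24, ISL1 at 1.17, PHOX2A at 1.10, HAND2 at 0.67 and GATA2 at 0.30, against a median of 0.58 over all genes. PHOX2A was lowest with DMSO at 24 h and highest with both agents at 72 h, and its 6 lowest group means were those of the 6 groups without ATRA. GATA3 ran the other way, with its 6 lowest group means in the 6 groups that received ATRA. Neighbours in the order overlapped in 7 of 11 pairs for PHOX2A, 8 for GATA3 and TBX2, 9 for HAND1, 10 for TFAP2B, 6 for ISL1 and all 11 for HAND2 and GATA2. Across the 12 group means, which share arrays, controls and times, PHOX2A and GATA3 had a Pearson correlation of -0.82, HAND1 and TFAP2B of -0.82 and HAND1 and TBX2 of -0.71, the 3 largest in size among all pairs of the 8 members, given as a description.

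Among 5963 genes of more than median level, the patterns most like each member over the 12 group means were those of IER3 (r = 0.97) and SYNJ2 (0.95) for PHOX2A, DPY19L1 (0.98) and RPS15A (0.97) for HAND1, and TMEM59 (0.97) and PHF21A (0.97) for TBX2. For GATA3 they were ATP2C1 (0.93) and CBX6 (0.92), for ISL1 STAG1 (0.88) and RIN2 (0.87), for HAND2 PRKAG1 (0.97) and SDF4 (0.94), and for GATA2 ITGAE (0.86) and FMR1 (0.77). For TFAP2B they were SGCB (0.90) and SLC6A2 (0.86), the latter being the noradrenaline transporter. These are the highest of 5963 correlations for each member over only 12 group means, given as a description. The HAND2 pattern comes from a dim probe set whose neighbouring group means overlapped in all 11 pairs.

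Other regulators that act with these factors formed a list of 23 measured genes. At 72 h 6 rose and 7 fell with ATRA, 3 rose and 0 fell with VPA, and 7 rose and 7 fell with both agents, with list medians of 0.08, 0.10 and 0.05 beside those of all genes given above. ZFPM2, a cofactor that binds GATA proteins, fell with ATRA (-1.76 ± 0.20) and with both agents (-1.84 ± 0.20) on a dim probe set (mean intensity 50.8). LMO4, a LIM-only protein, fell by -1.19 and -1.72. ZNF536 (-1.44) and SIX3 (-1.30) fell with ATRA, TLX2 (1.37) and MEIS1 (1.25), both homeodomain factors, rose with both agents, and EYA1 (0.60), SATB1 (0.43) and KLF7 (0.40) rose with VPA. MYCN, the amplified oncogene of this line, fell at 72 h with ATRA (-0.38 ± 0.08) and both agents (-0.33 ± 0.08). It was already called lower by limma at 6 h with ATRA (-0.27 ± 0.07, adjusted p = 0.041) and both agents (-0.33 ± 0.07, adjusted p = 0.0014). At 24 h it was called lower with both agents (-0.21 ± 0.07, adjusted p = 0.029) but not with ATRA (-0.11 ± 0.07, adjusted p = 0.29).

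A list of noradrenergic genes held 18 that were measured: genes of catecholamine synthesis, storage, uptake and breakdown, and others typical of these cells, among them the granins CHGA and CHGB, the neuropeptide NPY, the receptor RET, nicotinic receptor subunits and DLK1. At 24 h 11 rose and 1 fell with ATRA, 2 rose and 5 fell with VPA, and 9 rose and 3 fell with both, and at 72 h the counts were 8 and 4, 3 and 4, and 8 and 6. Of all genes at 24 h, 12.5% were called higher and 6.03% lower with ATRA, 9.66% and 2.49% with VPA, and 13.5% and 7.79% with both agents. DBH, which makes noradrenaline from dopamine, rose with ATRA at 24 h (0.69 ± 0.11, adjusted p = 1.3e-05) and fell at 72 h with ATRA (-0.49 ± 0.12) and both agents (-0.53 ± 0.12). TH, the rate-limiting enzyme, rose with ATRA at 24 h (0.70 ± 0.23, adjusted p = 0.033), when its arrays overlapped with DMSO, and was not called at 72 h. At 72 h SLC18A2, the vesicular monoamine transporter, fell with ATRA (-1.95 ± 0.17), SLC6A2 (1.40 ± 0.11) and PNMT (1.38 ± 0.16), which makes adrenaline, rose, and DLK1 fell (-1.42 ± 0.08). The PNMT probe set was dim (mean intensity 46.7), unlike that of SLC6A2 (2356). With both agents MAOA, which degrades monoamines, rose (2.50 ± 0.19), and SLC18A2 (-1.80 ± 0.17), CHGA (-1.72 ± 0.10) and DLK1 (-1.29 ± 0.08) fell. With VPA NPY (1.26 ± 0.08) and MAOA (1.00 ± 0.19) rose, and SLC18A1 (-1.42 ± 0.18) and CHGB (-0.82 ± 0.10) fell.

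The counts of the lists at 72 h stand beside all genes, of which 10.7% were called higher and 20.2% lower with ATRA, 4.51% and 2.15% with VPA, and 14.9% and 16.6% with both agents. Of 9 cholinergic genes measured, 2 rose and 2 fell at 72 h with ATRA, 1 rose and 1 fell with VPA, and 3 rose and 1 fell with both agents. SLC18A3, the vesicular acetylcholine transporter, rose in all 3 (0.96, 0.71 and 1.27), and LIFR, the receptor of a cytokine that drives the cholinergic switch of sympathetic neurons, fell (-1.12, -0.59 and -0.92) with a dim probe set (mean intensity 21.6). Of 9 measured antagonists of bHLH factors, 2 rose and 3 fell with ATRA, 1 rose and 1 fell with VPA, and 3 rose and 1 fell with both. HEY1 rose with ATRA (1.32 ± 0.13), and ID2, which sequesters bHLH partners, fell (-0.80 ± 0.15).

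Of 16 measured paralogues of the members, 4 rose and 0 fell at 72 h with ATRA, 1 rose and 1 fell with VPA, and 5 rose and 0 fell with both agents. GATA6 rose with ATRA (1.36 ± 0.17) and both agents (2.17 ± 0.17) from a low level, TBX3 by 0.40 and 0.88, and TWIST1, a bHLH factor, by 0.62 and 0.80. GATA4 fell with VPA (-0.45 ± 0.13). Regulators of the mesenchymal state of neuroblastoma numbered 23, of which 5 rose and 2 fell with ATRA, 2 rose and 1 fell with VPA, and 3 rose and 2 fell with both, with SMAD3 higher in each (1.89, 0.80 and 1.82). Of 12 neural crest and Schwann cell regulators, 3 rose and 2 fell with ATRA, 2 rose and 0 fell with VPA, and 3 rose and 0 fell with both, with SOX9 higher in each (1.88, 0.94 and 2.36).

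Among the cell type markers at 72 h, 5 of 10 noradrenergic genes rose and 3 fell with ATRA, 1 rose and 2 fell with VPA, and 4 rose and 3 fell with both agents. Of the 10 fibroblast and mesenchymal markers, 1 rose and 2 fell with ATRA, 4 rose and 0 fell with VPA, and 6 rose and 0 fell with both. LUM, a matrix proteoglycan, rose with VPA (2.46 ± 0.11) and both agents (1.60 ± 0.11) and fell with ATRA (-0.46 ± 0.11). Of the 6 epithelial markers, 1 rose and 0 fell with ATRA, 0 rose and 1 fell with VPA, and 3 rose and 0 fell with both. KRT19 rose with ATRA (1.35 ± 0.23) and both agents (0.92 ± 0.23) and fell with VPA (-0.77 ± 0.23), and KRT18 (1.78 ± 0.15) and EPCAM (0.71 ± 0.18) rose with both. The KRT18 and EPCAM probe sets were dim (mean intensities 45.1 and 26.4). Of the 6 blood cell markers, 2 rose with ATRA, 0 with VPA and 1 with both, and 0 fell. Of the 5 Schwann and glial markers 1 rose with ATRA, and of the 6 endothelial markers 1 fell with both agents. The part of these markers in the changes of the transcription factors was not tested.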

How the data were processed

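RNA of BE(2)-C cells was hybridised to 35 Affymetrix arrays as biotin-labelled cRNA primed from oligo-dT, per the labels' protocols. The deposited intensity values are those of RMA, which gives a normalized value for each probe set, as the submitters' processing notes name it. Its version and options are not given in the sources used here. The values lie on a linear scale from 9.48 to 26442 and carry no detection calls, so they do not say whether a dim probe set was detected. The number of arrays limits the precision.

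From these, log2(intensity + 1) was computed. Of 22930 probe sets, 19415 named 1 gene, 125 several and 3292 none, and 98 were controls that carried a gene symbol. Only the first were used, with the brightest probe set for each of 11940 genes (4507 had several). Gene names came from the platform annotation, and 11874 matched a reference by gene identifier. All 12 group means were estimated together with limma 3.58.1 in R 4.3.3 (23 residual and 5.5 prior degrees of freedom), giving 30 contrasts: each treatment against DMSO, the treatments against each other, the interaction at each time, DMSO between times, and treatment effects between times. Within a contrast, the Benjamini-Hochberg adjustment ran over all genes, with a threshold of 0.05. The procedure was tested on simulated data.

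The labels call the replicates triplicates and name no separate cultures, so p-values measure only the spread between these samples, which may be technical. Replicate numbers did not pair the arrays: the mean correlation of deviations of same-numbered arrays was 3.7e-05 (from -0.33 to 0.51), and 13 of 35 arrays correlated best with their own number.

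Named were all 8 members with every probe set, up to 4 genes of each other list with the largest called change at 72 h, the 2 most similar genes for each member, and TH, DBH and MYCN. Another gene of this rule is not reported here. The members and lists were chosen with earlier results of these data known. Alternatives were other pseudocounts (0 and 32), the mean of all probe sets, each probe set on its own, leaving out dim genes (7960 kept), a second quantile normalization, only the arrays compared, a replicate block, array weights, a robust prior with an intensity trend, the 3'/5' ratio as a covariate, and leaving out each array. Promoter windows came from RefSeq (GRCh38.p14).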

Additional observations from a re-analysis of the deposited data

Results flagged for a closer look

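For several members the effect of a treatment differed between times by a test of the difference itself (limma, Benjamini-Hochberg adjusted over all genes). HAND1 turned late: the ATRA effect at 72 h minus that at 6 h was -1.12 ± 0.16 (adjusted p = 5.1e-06) and minus that at 24 h was -1.28 ± 0.16 (adjusted p = 3.6e-06). With both agents these differences for HAND1 were -0.49 ± 0.16 (adjusted p = 0.026) and -0.62 ± 0.16 (adjusted p = 0.011). Both were lost without DMSO 72 h replicate 2 (-0.45 and -0.58), and the first also without DMSO 6 h replicate 1 (-0.45), DMSO 72 h replicate 1 (-0.54), both-agent 6 h replicate 3 (-0.45) or both-agent 72 h replicate 1 (-0.37).

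For TFAP2B the effect against DMSO moved upward from 6 h to 72 h under every treatment. On its brightest probe set DMSO fell from a mean of 1580 to 1190 between these times. ATRA rose from 1575 to 2822, VPA from 1220 to 1794 and both agents from 1192 to 1977. The effect on TFAP2B at 72 h minus that at 6 h was 1.25 ± 0.15 with ATRA (adjusted p = 3.9e-07), 0.96 ± 0.15 with VPA (adjusted p = 0.00017) and 1.13 ± 0.15 with both agents (adjusted p = 1.3e-06). Its ATRA effect at 72 h minus that at 24 h was 0.67 ± 0.15 (adjusted p = 0.0028), and the mean of its probe sets gave 0.09 (adjusted p = 0.77). The second probe set gave 1.42 with VPA and 1.28 with both agents for 72 h minus 6 h, both called, and 0.45 with ATRA, not called. On that probe set DMSO itself fell, from a mean of 187.9 at 6 h to 78.2 at 72 h. VPA read 97.1 and 108 at these times, and both agents 92.5 and 92.3. Its called differences thus go with the fall of DMSO rather than with a rise of similar size in the treated arrays.

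ISL1 changed sign with VPA, its effect at 72 h minus that at 6 h being 1.12 ± 0.12 (adjusted p = 4.4e-07), and the same difference with both agents was 0.60 ± 0.12 (adjusted p = 0.00049). For TBX2 with both agents it was 0.79 ± 0.18 (adjusted p = 0.0019). For GATA3 with ATRA it was -0.52 ± 0.16 (adjusted p = 0.025), lost without DMSO 6 h replicate 3 (-0.48), ATRA 6 h replicate 2 (-0.51), either DMSO 72 h array (-0.53 and -0.51) or ATRA 72 h replicate 1 (-0.48). The GATA3 means with ATRA were close at 6 h and 72 h (2114 and 2067), while those with DMSO were 3321 and 4652.

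For PHOX2A with both agents the effect at 72 h minus that at 6 h was 0.44 ± 0.14 (adjusted p = 0.025), lost without DMSO 6 h replicate 2 (0.42) or 3 (0.41), both-agent 6 h replicate 3 (0.42), either DMSO 72 h array (0.43 and 0.46) or both-agent 72 h replicate 2 or 3 (0.41 each). Its ATRA effect at 72 h minus that at 24 h was -0.41 ± 0.14 (adjusted p = 0.037), lost without DMSO 24 h replicate 1 (-0.31), ATRA 24 h replicate 1 (-0.39) or 3 (-0.42), either DMSO 72 h array (-0.43 and -0.40) or ATRA 72 h replicate 2 (-0.38). After a second quantile normalization that PHOX2A difference was -0.20 (adjusted p = 0.33) and the GATA3 difference with ATRA from 6 h to 72 h was -0.37 (adjusted p = 0.11). Adjusted for the 3'/5' ratio, the PHOX2A difference was -0.48 (adjusted p = 0.060). With only the arrays compared, the 72 h minus 24 h differences of PHOX2A and TFAP2B with ATRA and of HAND1 with both agents had adjusted p-values of 0.12, 0.070 and 0.17.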

How the results depend on the processing

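Of 93 member results called, 57 were called under every alternative tried, 64 under all but the leaving out of single arrays, and 0 reversed. Counts of member calls for each treatment against DMSO and for the treatments against each other moved by at most 1.5 times under each alternative, with 1 exception. The 6 calls of VPA against DMSO became 10 with array weights. They became 4 with only the arrays compared, which is within that limit. The 7 calls between times with DMSO became 4 with only the arrays compared, 12 with an intensity trend and robust prior, 15 with array weights and 2 when the 3'/5' ratio entered as a covariate, and ranged from 4 to 8 without single arrays. The 14 calls of treatment effects between times ranged from 9 to 16 without single arrays, with 9 without DMSO 72 h replicate 2. With a replicate block all 240 member results kept their side of the threshold, and the 15 calls with both agents against DMSO stayed 15. The second quantile normalization shifted the ATRA effect at 72 h minus 24 h by a median of 0.19 over genes, and shifted no other contrast by over 0.1. HAND2 lay below the median of its array in 35 of 35 arrays, and the files carry no detection calls.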
